A study of Mus musculus with 12 samples.

Results

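Chn2, Ptprm, Aff3, Hdac9, Ift80, Sox5, Gria3, Arpp21, Scml4 and Prag1 are 10 genes of the 33696 listed in the files, with the identifiers ENSMUSG00000004633, ENSMUSG00000033278, ENSMUSG00000037138, ENSMUSG00000004698, ENSMUSG00000027778, ENSMUSG00000041540, ENSMUSG00000001986, ENSMUSG00000032503, ENSMUSG00000044770 and ENSMUSG00000050271 in this order. They were selected on their low level in splenic γδ T cells of Gfi1 KO mice relative to WT mice, so that their splenic levels, in all cells and by Il2rb or Ccr7 in WT cells, are given here as a description with no test. γδ T cells carry a T cell receptor of a γ and a δ chain. Single-cell transcripts were counted with a 10x Genomics 3′ assay in 3 sorted compartments of adult mice: splenic CD3+ CD4-negative γδ T cells, γδ T cells of the thymus, and thymic DN1-DN3 cells sorted as one population, the early CD4-negative and CD8-negative precursors. Each compartment had 2 libraries from WT mice and 2 from Gfi1 KO mice, which carry the mutation in the germline, so that every cell of the animal lacked the factor throughout life. WT and KO cells of one pool carried different hashtags and were run together in droplets, so a pool gives both genotypes the same replicate number. Xist RNA was high in all thymic libraries and almost absent from the splenic ones. Sex and organ therefore cannot be told apart between spleen and thymus.

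GFI1 is a zinc-finger transcription factor that mostly represses its targets. Mature γδ T cells fall into a type that makes interleukin 17, a type that responds to interleukin 15 through the receptor chain encoded by Il2rb, and a recirculating type that enters lymphoid organs through the chemokine receptor encoded by Ccr7. The 10 genes have varied roles. Chn2 encodes β2-chimaerin, which turns off the GTPase Rac, Ptprm encodes a receptor tyrosine phosphatase of cell contacts, and Prag1 encodes the pseudokinase pragmin. Aff3 belongs to a family of transcription elongation factors, Hdac9 encodes a class IIa histone deacetylase, Sox5 encodes a SoxD transcription factor, and Scml4 a polycomb-like protein. Arpp21 encodes an R3H-domain protein that binds RNA, Ift80 a subunit of the IFT-B complex that builds cilia, and Gria3 a subunit of the AMPA-type glutamate receptor.

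RefSeq promoter windows of 300 bases (GRCm38.p6, 250 bases before to 50 after a start) were at hand for 6 of the 10 genes, with 18 windows in all: Aff3, Chn2, Sox5, Arpp21, Hdac9 and Ptprm. The counts were made on GRCm39, so these coordinates serve only the windows. Both strands were searched for AAATCAC, a GFI1-type motif that contains its core AATC, for CTTTGA, bound by TCF and LEF factors, and for CACCTG, an E-box. AAATCAC was in 3 of the 18 windows, 1 of Chn2 and 2 overlapping ones of Arpp21, and in 3.20% of 32851 windows of all genes. The core AATC was in 10 of the 18 windows, of Chn2, Arpp21 and Hdac9, and in 73.1% of all. CTTTGA was in 4 of the 18 and in 16.0% of all, and CACCTG in 6 of the 18 and in 20.2% of all, each only in windows of Arpp21, whose 9 windows partly overlap. These matches are letters and not sites of binding. A window of Chn2 and one of Arpp21 are shown because they hold the longer GFI1-type motif. Capitals mark that motif and, on either strand, the TCF and E-box letters.
Chn2, chr6:54268906-54269205, plus strand: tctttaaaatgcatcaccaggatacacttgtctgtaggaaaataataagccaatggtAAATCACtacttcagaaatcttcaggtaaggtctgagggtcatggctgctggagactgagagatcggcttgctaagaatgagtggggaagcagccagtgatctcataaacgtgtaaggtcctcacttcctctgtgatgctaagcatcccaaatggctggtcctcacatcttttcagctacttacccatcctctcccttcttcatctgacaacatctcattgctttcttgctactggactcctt
Arpp21, chr9:112187880-112188179, minus strand: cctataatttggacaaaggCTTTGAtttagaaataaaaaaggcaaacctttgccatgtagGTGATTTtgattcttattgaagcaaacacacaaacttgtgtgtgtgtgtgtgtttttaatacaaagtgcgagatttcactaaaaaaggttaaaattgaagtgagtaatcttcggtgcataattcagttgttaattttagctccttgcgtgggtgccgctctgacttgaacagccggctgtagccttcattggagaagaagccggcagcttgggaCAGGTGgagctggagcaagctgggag

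Levels are UMIs of a gene per 1000000 UMIs of the library or class of cells (CPM). The 12 libraries held 42091895 to 71663962 UMIs with the label WT and 42352748 to 69504211 with the label KO, with a median of 4947 to 6853 UMIs per cell. No cell barcode was shared within a pool, and 5 to 34 were shared between pools. Gfi1 itself was at 11.8 and 18.0 CPM in WT spleen and at 18.1 CPM in both KO libraries, and it was not lower with the label KO in the thymus either, so the labels are used as given and this transcript does not check them. Trdc, the constant gene of the δ chain, was at 1233 to 2051 CPM in the 8 γδ T libraries and at 126 to 199 CPM in DN1-DN3 libraries. The summed level of 5 markers of the interleukin 17 type (Maf, Blk, Il17a, Il23r, Cxcr6) was 418 to 464 CPM in WT spleen against 4379.6 to 4505 CPM in KO spleen, and 557 to 668 against 3227 to 3846 CPM in thymic γδ T cells. The 6 markers of the Il2rb type (Il2rb, Cd160, Ccl5, Eomes, Tbx21, Klrd1) summed to 2994 to 3271 CPM in WT spleen and 302.5 to 356 CPM in KO spleen, and 5 of the Ccr7 type (Ccr7, S1pr1, Lef1, Tcf7, Il7r) to 2503 to 2651 and 854 to 904 CPM. In the spleen the 4 γδ T markers went from 2384 to 2529 CPM in WT to 3755 to 4104 CPM in KO. The αβ T cell markers went from 1745 to 1806 CPM in WT to 993 to 1031 CPM in KO, the B lineage markers from 219 to 441 to 62.2 to 119.6 CPM and the NK markers from 598 to 637 to 71.3 to 128 CPM. The myeloid markers went from 119 to 135 to 316 to 339 CPM, and those of DN2 and DN3 cells from 80.2 to 81.5 to 218 to 231 CPM. The part of these shifts in the splenic values below was not tested. In sums over a library, fewer cells with a transcript and fewer transcripts per cell cannot be told apart.

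In the spleen all 10 genes were lower in both KO libraries than in either WT library, which is the pattern that chose them. Among the signalling genes, Chn2 was at 154 and 103 CPM in WT and at 1.86 and 1.93 CPM in KO, 82.8-fold and 53.2-fold lower in pools 1 and 2. Ptprm was at 48.5 and 45.7 CPM in WT and at 0.662 and 0.993 CPM in KO. Prag1 kept the largest part of its WT level, with 32.0 and 34.8 CPM in WT and 5.96 and 3.84 CPM in KO. Of the chromatin and transcription genes, Aff3 was at 679 and 659 CPM in WT and at 16.1 and 14.9 CPM in KO, and Hdac9 at 480.0 and 489 CPM in WT and at 12.9 and 13.5 CPM in KO. Sox5 was at 197 and 177 CPM in WT and at 3.18 and 3.90 CPM in KO. Scml4 was again less far apart, with 285 and 291 CPM in WT and 33.6 and 31.4 CPM in KO. Of the others, Ift80 was at 224 and 231 CPM in WT and at 11 and 13.1 CPM in KO, Gria3 at 62.9 and 71.6 against 1.60 and 2.46 CPM, and Arpp21 at 23.6 and 29.5 against 0.449 and 0.662 CPM. The lowest counts behind these values were 21 and 46 UMIs of Arpp21 in the KO libraries. The splenic log2 differences of the 10 genes lay between −5.98 for Chn2 and −2.69 for Prag1, with a median of −5.22, while the median of the 14925 genes tested was 0.0033. Only Scml4 and Prag1 stayed under a 10-fold difference in both pools.

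**Figure D1:**
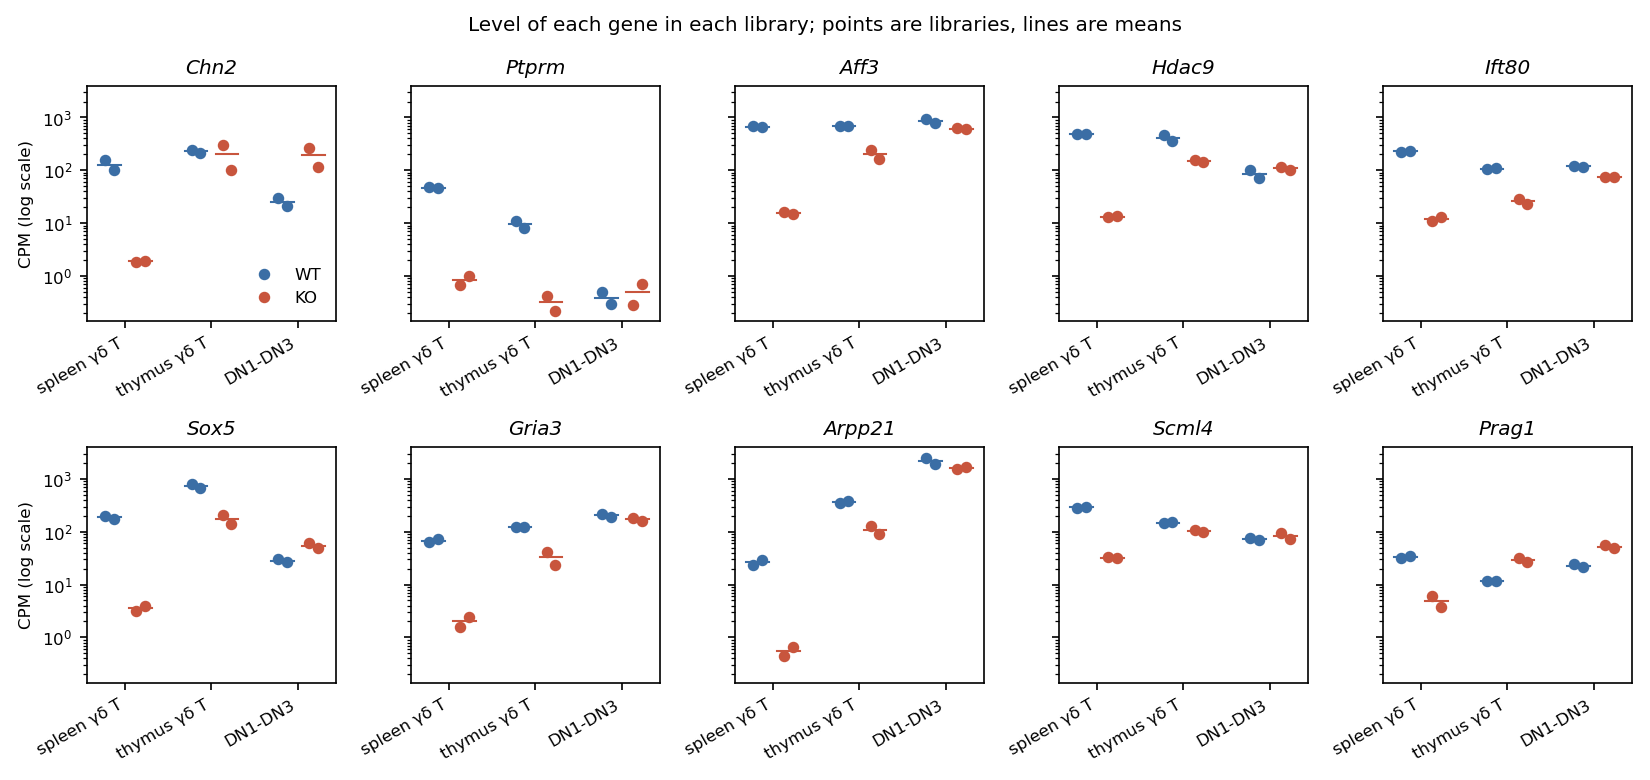
CPM (log scale) of each of the 10 genes in the 12 libraries, blue for WT and red for KO, with points for libraries and short lines for means of 2 libraries. All 10 are far lower in KO spleen, 8 of the 10 are lower in both KO libraries of thymic γδ T cells, Prag1 is higher there, and Chn2, Sox5 and Prag1 are higher in KO DN1-DN3 cells.

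The share of cells with a UMI moved with the level. A UMI of Aff3 was counted in 78.8% and 81.8% of WT splenic cells and in 3.61% and 5.07% of KO cells. The shares of Scml4 were 62.6% and 64.7% in WT and 13.7% and 13.9% in KO, and those of Arpp21 6.62% and 7.80% in WT and 0.218% and 0.325% in KO. The median depth was 4947 and 5026 UMIs in WT cells and 5458 and 5402 in KO cells, so the KO cells were not shallower. With every cell thinned to 2000 UMIs, Aff3 was in 60.2% and 62.1% of WT cells and in 1.78% and 2.24% of KO cells. WT and KO cells shared a droplet run, and the part of free RNA of the run in these shares was not tested. At least 3 of the 10 genes were detected in 60.5% and 63.6% of WT cells and in 1.23% and 1.08% of KO cells, and none of the 10 in 7.21% and 5.08% of WT cells and in 74.1% and 70.0% of KO cells.

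Among WT splenic cells the genes differed in the class that held them. Cells with at least 1 UMI of Il2rb numbered 4401 and 6506, cells with at least 1 UMI of Ccr7 1643 and 2482, and 951 and 1477 cells had both. The thinned share was higher in Il2rb cells than in Ccr7 cells in both libraries for 5 genes, Chn2, Ptprm, Hdac9, Sox5 and Prag1, and lower in both for the other 5. The cells with both genes were then left out. Chn2 was at 219.8 and 131 CPM in Il2rb cells and at 84.4 and 54.3 CPM in Ccr7 cells, and Sox5 at 251 and 202 against 138 and 149 CPM. Prag1 was at 38.7 and 40.8 CPM in Il2rb cells and at 24.0 and 21.3 CPM in Ccr7 cells. Arpp21 went the other way, with 11.05 and 15.9 CPM in Il2rb cells and 52.2 and 65.4 CPM in Ccr7 cells, and so did Gria3, with 54.0 and 50.8 against 101 and 143 CPM. Scml4 was at 245 and 251 CPM in Il2rb cells and 404 and 399 CPM in Ccr7 cells, and Ift80 at 197 and 198 against 296 and 303.1 CPM. Aff3 lay close together in both, at 665 and 635 against 742 and 741 CPM. Ptprm was at 44.6 and 40.6 CPM in Il2rb cells and 31.1 and 16.7 CPM in Ccr7 cells. Hdac9 was at 510.3 and 439 against 405 and 405 CPM, a ratio of 1.26 and 1.08, less far apart than the ratio of 1.52 and 1.16 with the double cells kept in both classes. Ptprm and Hdac9 were highest in cells with neither gene, at 74.6 and 76.3 CPM for Ptprm and 592 and 731 CPM for Hdac9. Those cells were shallower, with a median of 4101 and 4053 UMIs.

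**Figure D2:**
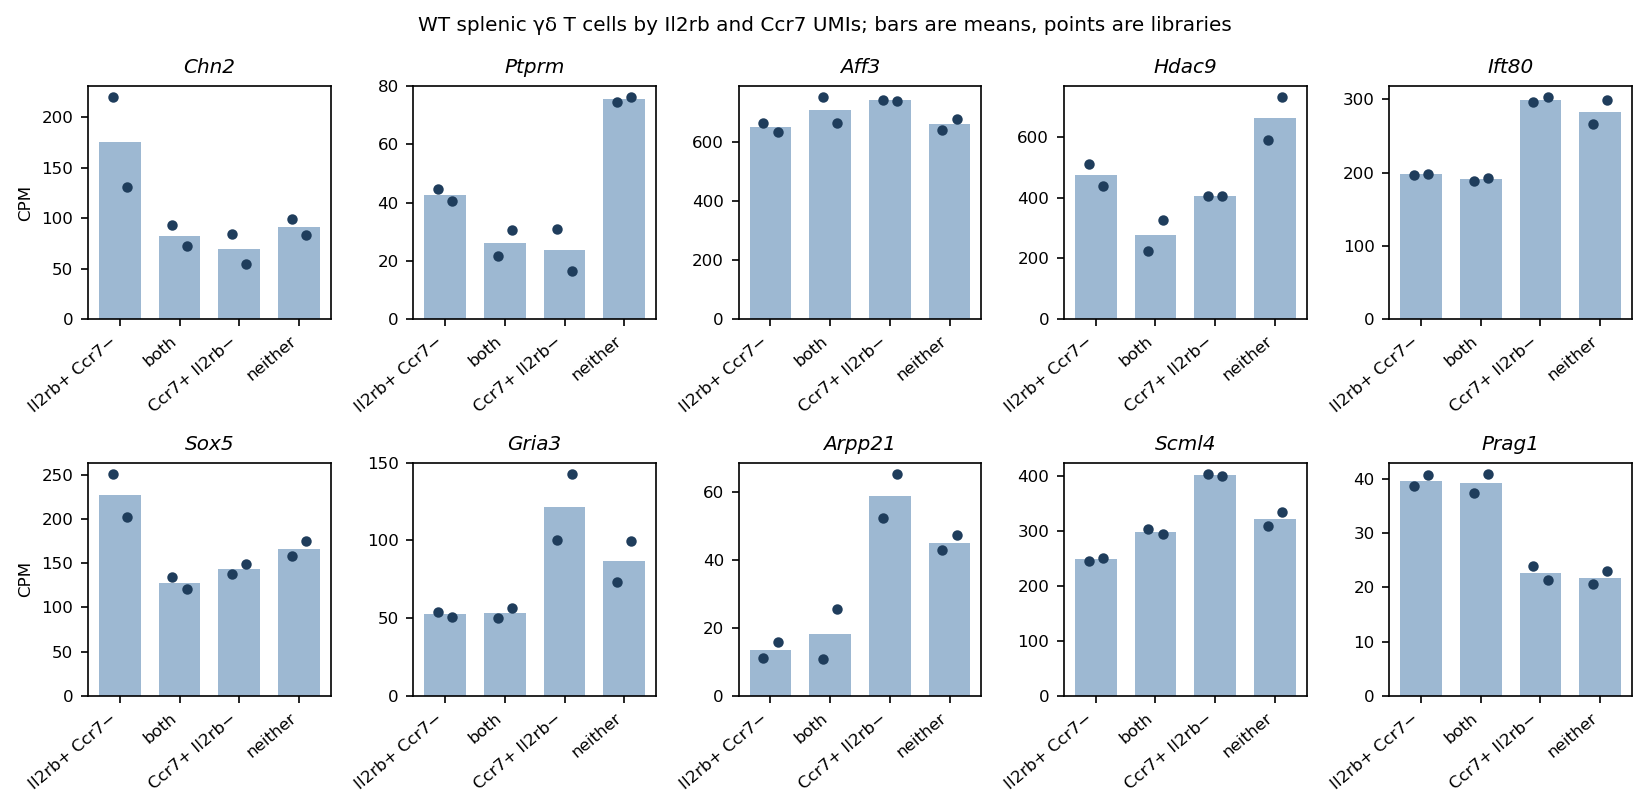
CPM of each of the 10 genes in WT splenic γδ T cells, by whether a cell had a UMI of Il2rb, Ccr7, both or neither; bars are means and points the 2 libraries. Chn2, Sox5 and Prag1 stand higher in Il2rb cells, and Arpp21, Gria3, Scml4 and Ift80 in Ccr7 cells.

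In KO spleen, cells with a UMI of Il2rb were common, at 3938 and 5438. Exactly 1 such UMI was counted in 60.8% and 65.5% of them, against 36.1% and 36.5% of the WT cells of this class. The summed Il2rb-type markers were also far lower in KO spleen, as given above. The class therefore need not hold the same type of cell in both genotypes. These KO cells held as little as all KO cells, with Aff3 at 20.5 and 18.3 CPM. Cells with a UMI of Ccr7 were rare, at 102 and 132, and held more. Aff3 was at 329.7 and 169 CPM in them, Scml4 at 217 and 97.0 CPM and Hdac9 at 124 and 61.2 CPM, against 749 and 688, 337 and 327, and 288 and 352 CPM in WT Ccr7 cells. The values of Hdac9 rest on 92 UMIs in 14 KO cells and on 58 UMIs in 10. Prag1 was at 40.4 and 20.04 CPM in these KO cells and at 32.7 and 34.7 CPM in the WT ones, so the libraries overlapped. Ptprm had no UMI in 1 of the 2 KO libraries there and 9.49 CPM in the other. The KO Ccr7 cells had a median of 6166.5 and 6462 UMIs, against 5458 and 5402 in all KO cells. The hashtag of the KO label was the higher one in 99.9% and 99.6% of all KO splenic cells. Whether WT cells or doublets are among the few KO Ccr7 cells was not tested.

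The genes were named for the spleen, and tests are given for the thymic γδ T cells. Earlier results of all compartments were known when the genes were chosen, so these tests are not fully independent of the choice. Of the 10 genes, all tested, 8 fell in KO libraries, 1 rose and 1 was not called, while 23.7% of all 14925 genes tested fell and 26% rose. The median log2 difference of the 10 was −1.66 and that of all genes −0.0020. Tests throughout are quasi-likelihood tests of edgeR, adjusted by Benjamini-Hochberg over all genes of a comparison, with standard errors (SE) of the fit. Ptprm was at 11.2 and 8.15 CPM in WT and at 0.425 and 0.220 CPM in KO, a log2 difference of −4.78 (SE 0.40, adjusted p = 1.47e-05). Sox5 was at 793 and 679.8 CPM in WT and at 204 and 141 CPM in KO, a difference of −1.98 (SE 0.16, adjusted p = 9.69e-06). Aff3 went from 698 and 701 CPM to 242 and 165 CPM, a difference of −1.67 (SE 0.15, adjusted p = 1.60e-05).

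Hdac9 was at 465 and 362 CPM in WT thymic γδ T cells and at 156 and 145 CPM in KO cells (log2 difference −1.34, SE 0.14, adjusted p = 4.39e-05). Ift80 was at 105 and 108 CPM in WT and at 28.7 and 22.9 CPM in KO (−1.93, SE 0.11, adjusted p = 2.26e-06), and Gria3 at 125 and 126 against 42.3 and 23.9 CPM (−1.81, SE 0.21, adjusted p = 9.25e-05). Arpp21 fell from 358 and 385 CPM to 128 and 91.2 CPM (−1.65, SE 0.18, adjusted p = 4.68e-05). Scml4 had the smallest fall, from 145 and 153 CPM to 106 and 97.0 CPM (−0.44, SE 0.09, adjusted p = 0.00313). Each of the 8 genes that fell was lower in both KO libraries than in either WT library, in the comparison where 23.7% of all genes fell, and pool 2 had the lower KO level of each.

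Prag1 and Chn2 stood apart from the rest. Prag1 rose in the thymus, from 11.8 and 11.5 CPM in WT to 32.0 and 26.2 CPM in KO, a log2 difference of 1.44 (SE 0.17, adjusted p = 7.67e-05), although it was chosen for its low level in KO spleen. Its WT level was higher in the spleen than in the thymus, and its KO level was higher in the thymus. This crossing was not tested, and sex and organ cannot be told apart in it. Chn2 was at 245 and 212 CPM in WT and at 301 and 100.3 CPM in KO, so that it was higher in KO in pool 1 and lower in pool 2. Its difference of −0.09 (SE 0.45, adjusted p = 0.891) was not called. In the KO libraries the 4 γδ T markers summed to 4028 to 4134 CPM, against 2636 to 2725 CPM in WT, the markers of the Ccr7 type to 1547 to 1549 against 2153 to 2263 CPM, and those of the Il2rb type to 172 to 212 against 220.2 to 230.0 CPM. Cells with a UMI of Il2rb itself went the other way, at 45.3% and 46.3% of KO cells and 31.5% and 34.7% of WT cells. The markers of αβ T cells summed to 1303 to 1531 CPM, against 3175 to 3262 CPM in WT, and the B lineage markers to 63.7 to 81.5 against 155 to 157 CPM. The NK markers summed to 61.0 to 93.6 CPM in KO and 225 to 234 CPM in WT. The myeloid markers were higher in KO, at 180.1 to 195 against 106 to 113 CPM, and so were those of DN2 and DN3 cells, at 173 to 208 against 76.0 to 105 CPM. The part of these in the thymic differences was not tested.

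**Figure D3:**
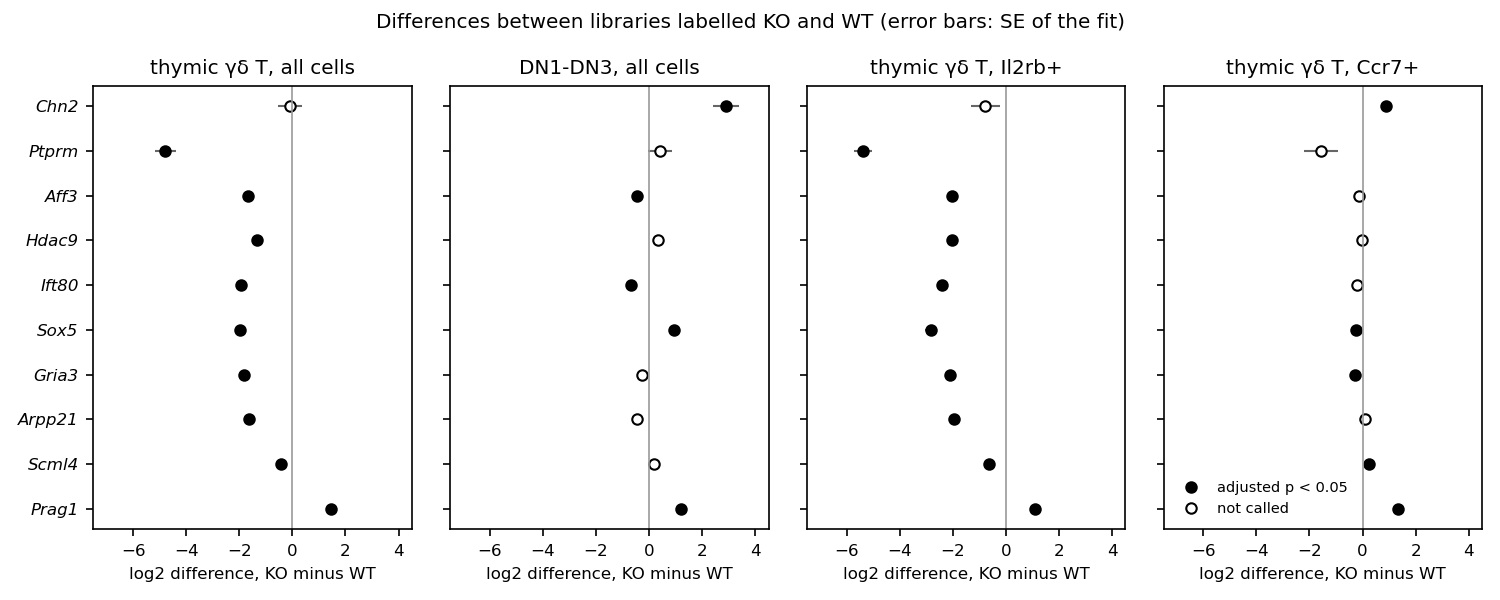
Log2 differences between libraries labelled KO and WT for the 10 genes, with error bars of 1 SE from the edgeR fit; filled points passed an adjusted p of 0.05. In thymic γδ T cells, whole or with a UMI of Il2rb, 9 genes lie below 0, all but Chn2 with filled points, and Prag1 lies above, while in cells with a UMI of Ccr7 most lie near 0.

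In WT thymic γδ T cells the classes by Il2rb and Ccr7 were compared, again on cells with only 1 of the 2 genes and with the pool as a block. Those with Il2rb numbered 1757 and 2224 and those with Ccr7 945 and 1024. Of the 10 genes, 8 were higher in Il2rb cells and 2 lower, beside 16.7% and 15.5% of 12123 genes tested. The median log2 difference of the 10 was 0.75 and that of all genes 0.0020. Ptprm was at 30.7 and 20.2 CPM in Il2rb cells and at 1.91 and 0.759 CPM in Ccr7 cells (log2 difference 4.21, SE 0.19, adjusted p = 1.74e-13). Chn2 was at 437 and 366 CPM against 132 and 137 CPM (1.52, SE 0.06, adjusted p = 1.23e-08), and Sox5 at 1175 and 1010.0 CPM against 605 and 558 CPM (0.86, SE 0.04, adjusted p = 1.56e-13). Ift80 was also higher in Il2rb cells, at 159 and 148 CPM against 65.4 and 78.2 CPM, unlike its order in WT spleen. So was Scml4 (0.23, SE 0.05, adjusted p = 0.00120), again unlike its order in WT spleen. Arpp21 was lower in Il2rb cells, at 181 and 209 CPM against 349 and 374 CPM (−0.94, SE 0.04, adjusted p = 2.79e-13), and Gria3 at 82.5 and 93.6 against 133 and 134 CPM (−0.65, SE 0.05, adjusted p = 8.44e-09). The difference of Aff3, 0.10 with an adjusted p of 0.0394, was not called under any of its 8 alternatives, where the adjusted p was 0.0798 to 0.696. Leaving out either Ccr7 sum, and so the block, ended the calls of Ptprm (adjusted p = 0.0893 and 0.111) and Hdac9 (0.193 and 0.249), and without that of replicate 1 Scml4 was not called either (0.192), which left 6 of the 10. DESeq2 did not call Scml4 (0.152) or Prag1 (0.212).

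The KO difference was then taken within classes of thymic γδ T cells. In cells with a UMI of Il2rb (2149 and 2765 in WT, 3075 and 3532 in KO) 8 genes fell and Prag1 rose, beside 26.6% of 12968 genes that fell and 28% that rose, with a median log2 difference of −2.03 for the 10 and of 0.0056 for all genes. Sox5 was at 1119.5 and 969 CPM in WT and at 159 and 108 CPM in KO (−2.84, SE 0.19, adjusted p = 4.27e-04), and Arpp21 at 201 and 218 against 50.8 and 48.8 CPM (−1.94, SE 0.07, adjusted p = 2.58e-05). Without KO replicate 2 Hdac9 was not called (adjusted p = 0.110), and without KO replicate 1 Chn2 was, at a difference of −1.78. Exactly 1 UMI of Il2rb was counted in 60.4% and 63.1% of these KO cells and in 46.6% and 50.5% of the WT cells. Each class rests on a UMI of 1 gene and need not hold the same mixture of cells in both genotypes.

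Cells with a UMI of Ccr7 (1337 and 1565 in WT, 516 and 369 in KO) gave another picture. Of the 10 genes 2 fell, 3 rose and 5 were not called, beside 9.83% of 11859 genes that fell and 12.3% that rose, with a median log2 difference of −0.09 for the 10 and of 0.0038 for all genes. Arpp21 was at 318 and 321 CPM in WT and at 324 and 342 CPM in KO (0.09, SE 0.06, adjusted p = 0.364), and Hdac9 at 361 and 283 against 324 and 287 CPM (−0.04, SE 0.13, adjusted p = 0.885). Aff3 was at 694 and 738 against 594 and 677 CPM (−0.14, SE 0.07, adjusted p = 0.213). Sox5 fell by 0.27 (SE 0.07, adjusted p = 0.0176) and Gria3 by 0.29 (SE 0.07, adjusted p = 0.0143), and Scml4 rose by 0.26 (SE 0.08, adjusted p = 0.0486). Prag1 rose here as well, from 12.3 and 11.9 CPM to 29.5 and 29.9 CPM (1.32, SE 0.13, adjusted p = 3.16e-05), and so did Chn2, from 208 and 195 CPM to 421 and 301.6 CPM (0.89, SE 0.16, adjusted p = 0.0192). These small differences were not firm: without WT replicate 1 only Prag1 of the 10 was called, without WT replicate 2 Chn2 and Gria3 were not, DESeq2 did not call Gria3 or Scml4, without KO replicate 2 Aff3 and Ift80 were called and Scml4 was not, and with at least 2 UMIs of Ccr7 Sox5 was not called (−0.15, adjusted p = 0.364) and the difference of Gria3 was 0.054.

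The difference between these classes was tested itself, in a comparison added after the data had been seen. The KO difference in cells with Il2rb and no Ccr7 was set against that in cells with Ccr7 and no Il2rb, with the library as a block. It was lower in the Il2rb class for 7 of the 10 genes and higher for none, beside 15.8% and 13.1% of 12710 genes, with a median of −2.45 for the 10 and of −0.02 for all genes. Sox5 was at 112 and 77.5 CPM in KO and 1175 and 1010.0 CPM in WT cells of the Il2rb class, and at 607 and 589.6 CPM in KO and 605 and 558 CPM in WT cells of the Ccr7 class, a difference of −3.47 (SE 0.12, adjusted p = 3.12e-08). Ift80 differed by −2.72 (SE 0.19, adjusted p = 8.13e-06), Arpp21 by −2.61 (SE 0.09, adjusted p = 7.99e-10) and Hdac9 by −2.48 (SE 0.10, adjusted p = 1.75e-09). Gria3 differed by −2.31 (adjusted p = 7.75e-09) and Scml4 by −1.13 (adjusted p = 1.15e-06). Aff3 differed by −2.43 (SE 0.34, adjusted p = 0.0323), and was not called without either WT library or without the filter on low counts, at 0.0889 to 0.0985. Prag1 rose in both classes and its difference between them was −0.31 (SE 0.20, adjusted p = 0.275). Ptprm (−3.37, adjusted p = 0.237) had 1 UMI in all in the KO cells of the Ccr7 class, and was not called. Chn2 (−2.43, adjusted p = 0.140) was not called either, but it was called by DESeq2 (adjusted p = 0.00231), with at least 2 UMIs of the gating gene (7.33e-10) and without either KO library (4.61e-18 and 1.23e-06). The KO cells of the Ccr7 class numbered 306 and 217. Neither class need hold the same mixture of cells in both genotypes.

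**Figure D4:**
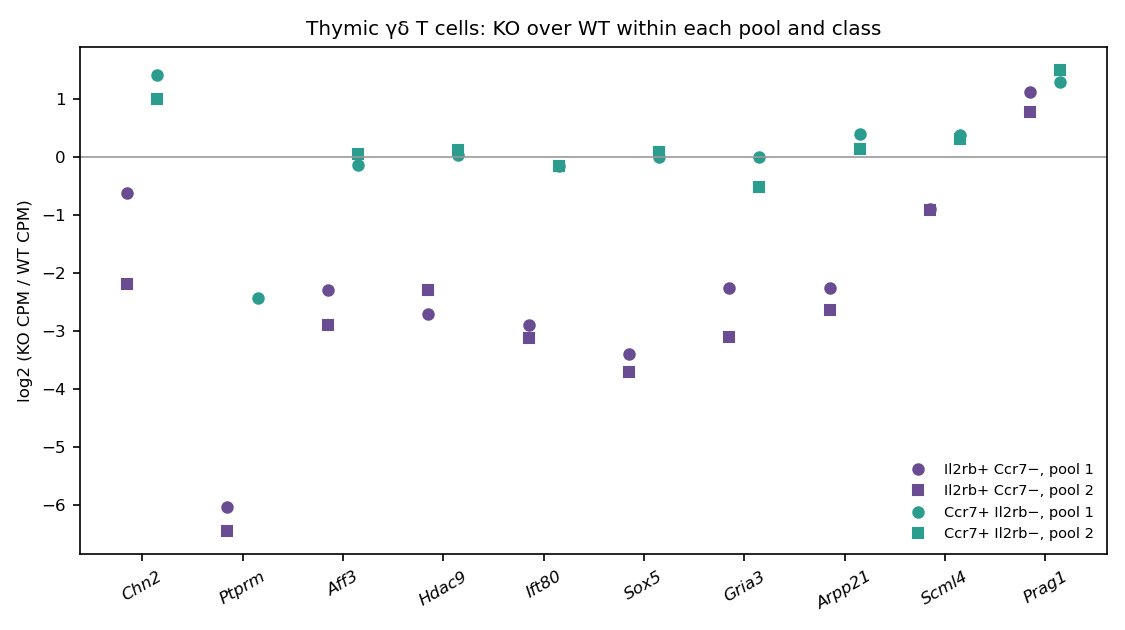
Log2 ratio of KO to WT CPM within pool 1 (circles) and pool 2 (squares) for thymic γδ T cells with a UMI of Il2rb and none of Ccr7 (purple) and with Ccr7 and no Il2rb (green); Ptprm in pool 2 has no Ccr7-class point, since no KO cell had a UMI. Sox5, Ift80, Arpp21, Aff3, Hdac9, Gria3 and Scml4 lie below 0 in purple and near 0 in green, and Prag1 lies above 0 in both.

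In DN1-DN3 cells 3 of the 10 genes rose in KO libraries, 2 fell and 5 were not called, beside 15.2% of 14925 genes that rose and 7.72% that fell. The median log2 difference of the 10 was 0.27 and that of all genes −0.02. Chn2 was at 29.5 and 21.0 CPM in WT and at 267 and 115 CPM in KO, a difference of 2.90 (SE 0.49, adjusted p = 0.00247). Prag1 was at 24.2 and 21.6 CPM in WT and at 55.2 and 49.0 CPM in KO (1.19, SE 0.16, adjusted p = 7.77e-04), and Sox5 at 29.9 and 26.9 against 60.8 and 48.5 CPM (0.94, SE 0.16, adjusted p = 0.00211). Each of these 3 genes was higher in both KO libraries than in either WT library here, in the comparison where 15.2% of all genes rose, and lower in both in the spleen.

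Ift80 fell in DN1-DN3 cells, from 123 and 116 CPM to 73.6 and 75.9 CPM (log2 difference −0.68, SE 0.10, adjusted p = 0.00118). Aff3 fell from 938 and 779.6 CPM to 632 and 604 CPM (−0.47, SE 0.14, adjusted p = 0.0394), but was not called without either WT library, without KO replicate 1 or in a fit of only the 4 DN1-DN3 libraries, at 0.0825 to 0.207. Arpp21, which was at 2475 and 1935 CPM in WT and at 1555 and 1657 CPM in KO, did not pass the test (−0.45, SE 0.17, adjusted p = 0.0895), but was called by DESeq2 (adjusted p = 0.0377). Hdac9 (0.34), Gria3 (−0.25) and Scml4 (0.20) were not called, with adjusted p from 0.112 to 0.415, although Hdac9 was called without WT replicate 1 (0.0427) and Scml4 without KO replicate 2 (0.0213). Ptprm had 13 to 40 UMIs in each of these libraries, 0.279 to 0.711 CPM, and no difference was detectable at this depth. Without KO replicate 1 Chn2 was not called either (2.25, adjusted p = 0.0608), and 3 of the 10 genes were called.

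Marker sums also differed between the DN1-DN3 libraries. The 4 γδ T markers summed to 1309 to 1418 CPM in KO and 1550.1 to 1568 CPM in WT. Markers of the interleukin 17 type summed to 352 to 923 CPM in KO and 68.1 to 72.7 CPM in WT, and those of the Il2rb type to 156 to 267 against 32.0 to 37.4 CPM. The NK markers summed to 142 to 230 CPM in KO and 91.8 to 92.1 CPM in WT, and the B lineage markers to 135 to 259 against 114 to 121 CPM. The myeloid markers summed to 142 to 158 against 98.9 to 102 CPM, and the αβ T cell markers to 1989 to 2029 against 2082 to 2159.8 CPM. Cells with a UMI of Trac, a gene of the αβ list, went the other way. They were 35.2% and 17.9% of KO cells and 7.09% and 6.53% of WT cells. The sums of the Ccr7 type and of DN2 and DN3 markers overlapped between the genotypes. The part of these in the DN1-DN3 differences was not tested. Cells with a UMI of Il2rb numbered 1902 and 1103 in KO and 288 and 284 in WT, and held Chn2 at 628 and 586 CPM in KO and 353 and 349 CPM in WT. In cells with neither Il2rb nor Ccr7, Chn2 was still at 135 and 46.3 CPM in KO and 17.3 and 9.46 CPM in WT, Prag1 at 51.7 and 46.5 against 23.4 and 21.3 CPM, and Sox5 at 69.1 and 48.7 against 29.3 and 25.3 CPM. In cells with a UMI of Il2ra, a gene of DN2 and DN3 cells, 2 of the 10 genes rose and 1 fell, beside 6.59% and 2.9% of 13542 genes, with a median of 0.06 for the 10 and of −0.01 for all genes. Prag1 (1.06, SE 0.09, adjusted p = 0.00264) and Sox5 (0.99, SE 0.13, adjusted p = 0.0103) rose, and Ift80 fell by 0.54 (SE 0.10, adjusted p = 0.0268). Chn2 was at 15.6 and 9.90 CPM in WT and 109 and 43.4 CPM in KO and was not called (2.58, SE 0.50, adjusted p = 0.0564). With the pool as a replicate block Chn2 and Hdac9 were called too, at adjusted p of 0.00607 and 0.0187, and 5 of the 10 in all. By DESeq2 Chn2 and Aff3 were called too, at 7.93e-04 and 0.0268. Without either WT library none of the 10 was called, and without either KO library Chn2 was called as well, with Hdac9 too without KO replicate 2 (0.00200).

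The KO difference of thymic γδ T cells was set against that of DN1-DN3 cells as an interaction. It was lower in γδ T cells for 9 of the 10 genes and higher for none, beside 13% and 8.83% of 14925 genes, with a median of −1.41 for the 10 and of −0.01 for all genes. The 10 genes were chosen for a low KO level in splenic γδ T cells, so this comparison is not fully independent of the choice. The differences were −5.19 for Ptprm (SE 0.63, adjusted p = 6.67e-04), −2.99 for Chn2 (SE 0.66, adjusted p = 0.0109) and −2.92 for Sox5 (SE 0.22, adjusted p = 5.60e-05). The other 6 lay between −1.68 for Hdac9 and −0.64 for Scml4. Prag1, which rose in both compartments, had a difference of 0.25 (SE 0.23, adjusted p = 0.479). By the design text of the series both thymic sorts came from the same mice, and the interaction was not fitted with the mouse as a block. The call of Chn2 was lost without KO replicate 1 or WT replicate 2 of DN1-DN3 cells and without the filter on low counts, at 0.0505 to 0.0737.

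Between the WT compartments of the thymus, 5 of the 10 genes were higher in γδ T cells than in DN1-DN3 cells and 3 lower, beside 24.3% and 22.8% of all genes, with a median of 0.46 for the 10 and of −0.0021 for all genes. The higher ones were Sox5 (log2 difference 4.72, SE 0.18, adjusted p = 2.11e-07), Ptprm (4.65, SE 0.37, adjusted p = 1.23e-05), Chn2 (3.21, SE 0.49, adjusted p = 5.75e-04), Hdac9 (2.28, SE 0.15, adjusted p = 2.73e-06) and Scml4 (1.06, SE 0.09, adjusted p = 1.69e-05). Arpp21 was lower in γδ T cells (−2.55, SE 0.18, adjusted p = 4.69e-06), as were Prag1 (−0.95, SE 0.17, adjusted p = 0.00108) and Gria3 (−0.68, SE 0.21, adjusted p = 0.0211). The call of Gria3 was lost without any 1 of the 4 WT libraries, at 0.0537 to 0.0886. Aff3 (−0.27, adjusted p = 0.145) and Ift80 (−0.15, adjusted p = 0.260) were not called. With the replicate number as a block, since both sorts came from the same mice, 8 of the 10 were called too. That number need not stand for a single mouse. Xist was at 739 to 1600 CPM in the thymic libraries and at most 0.374 CPM in the splenic ones. Sex and organ therefore cannot be told apart for any of the 10 genes between spleen and thymus, among them Gria3, which lies on the X chromosome.

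Relatives and partners of the 10 genes were taken from lists of 42 genes, of which 39 could be tested. In thymic γδ T cells 17 fell, 5 rose and 17 were not called in KO libraries, with a median log2 difference of −0.35, in the comparison where 23.7% of all genes fell and 26% rose. In DN1-DN3 cells 6 fell and 4 rose, where 7.72% of all genes tested fell and 15.2% rose, and in the spleen 15 fell and 5 rose, where 26.1% of all genes tested fell and 28.6% rose. Of 15 IFT-B subunits tested besides Ift80, 7 fell in thymic γδ T cells and 1 rose. Hspb11 fell by 1.15 (SE 0.13, adjusted p = 6.61e-05) and Ift22 by 1.16 (SE 0.15, adjusted p = 1.33e-04). Of 7 polycomb genes listed with Scml4, 5 fell and 1 rose. Scmh1 fell by 1.59 (SE 0.18, adjusted p = 7.53e-05), Sfmbt1 by 0.89 (SE 0.11, adjusted p = 1.13e-04), Phc1 by 0.88 (SE 0.11, adjusted p = 1.05e-04) and Scml2 by 2.14 (SE 0.30, adjusted p = 2.20e-04), and Phc3 rose by 0.91 (SE 0.13, adjusted p = 2.38e-04).

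The close relatives moved unevenly. Hdac7, the class IIa deacetylase of thymocytes, fell by 1.08 in the thymic comparison (SE 0.10, adjusted p = 1.60e-05) and by 1.85 in the spleen (SE 0.10, adjusted p = 3.37e-07). Hdac5 rose by 0.94 in the thymic comparison (SE 0.21, adjusted p = 0.00435), by 1.11 in DN1-DN3 cells (0.00645) and by 0.69 in the spleen (0.0197). Hdac4, the other class IIa gene tested, fell by 0.36 in the thymic comparison (adjusted p = 0.0213), by 0.48 in DN1-DN3 cells (0.0122) and by 1.35 in the spleen (5.67e-06). Of the receptor phosphatases like Ptprm, Ptprk fell by 3.22 in the thymic comparison (SE 0.49, adjusted p = 4.72e-04), by 1.75 in DN1-DN3 cells (0.0140) and by 4.23 in the spleen (1.66e-04), and Ptpru rose by 2.37 in the first (SE 0.72, adjusted p = 0.0194). The rise of Ptpru rests on very low levels, 0.0170 and 0.126 CPM in WT and 0.472 and 0.264 CPM in KO thymic γδ T cells. Aff1, of the family of Aff3, fell by 0.59 in the thymic comparison (SE 0.09, adjusted p = 4.42e-04) and by 0.80 in the spleen (4.52e-05). In DN1-DN3 cells Aff1 rose by 0.29 (0.0412). Aff2 rose by 2.82 in the thymic comparison (SE 0.49, adjusted p = 8.86e-04). Gria2, another AMPA receptor subunit, was at 2.38 and 1.52 CPM in WT thymic γδ T cells and at 0.0708 and 0.0220 CPM in KO cells (−5.22, SE 0.58, adjusted p = 1.46e-04), and had no UMI in any splenic library. Neither Sox6 nor Sox13, the other SoxD genes, was called in thymic γδ T cells, but Sox13 rose by 3.02 in KO spleen (SE 0.20, adjusted p = 1.58e-06), where Sox5 was lower, and by 0.63 in DN1-DN3 cells (SE 0.19, adjusted p = 0.0391).

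Over the 12 libraries the genes did not follow a single profile. Pearson correlations of log2(CPM + 1), given as a description over libraries that share organs and runs, reached 0.974 for Aff3 and Gria3 and 0.958 for Hdac9 and Scml4, and were lowest for Ptprm and Arpp21 at −0.226. Among 6719 other genes above a mean level of 20 CPM, those closest to the mean profile of the 10 included Prkch, 1700025G04Rik, Rmdn1 and Il6st, with correlations of 0.988, 0.985, 0.983 and 0.980. The 12 libraries include the 4 splenic ones that chose the 10 genes, which favours genes low in KO spleen. Over the 8 thymic libraries alone, a setting added after the data had been seen, the correlations were 0.919, 0.904, 0.975 and 0.951, and the ranks among the same genes 57, 77, 7 and 24. Prkch, a protein kinase C gene, averaged 716 CPM in WT and 19.97 CPM in KO spleen, 529 and 174 CPM in thymic γδ T cells, and 371 and 379.7 CPM in DN1-DN3 cells.

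Of the 10 genes, 9 have gene bodies of at least 100 kb, which the selection did not use. In RefSeq (GRCm38.p6) their spans were 53.0 kb for Prag1 and 103 to 954 kb for the other 9, with a median of 269.8 kb, against a median of 23.2 kb over the 14371 tested genes with a span. Only 13.5% of those genes span at least 100 kb. Of these long genes 36.6% fell and 22.5% rose in KO spleen, against 24.4% and 30.1% of the shorter ones. In thymic γδ T cells 27.9% of the long genes fell and 28.5% rose, against 23.3% and 25.9% of the shorter ones. In DN1-DN3 cells 10.4% of the long genes fell and 21.0% rose, against 7.49% and 14.4% of the shorter ones. No other protein-coding gene overlaps the span of any of the 10, and 1 to 6 genes of other RNAs overlap the spans of all but Gria3 and Prag1.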

How the data were processed

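Adult mice labelled WT or Gfi1 KO gave 12 demultiplexed libraries, 2 per genotype in 3 compartments. The authors deposited unnormalized UMI counts for each gene in each cell, made with Cell Ranger 8.0.1 and the build GRCm39 per the submitters' processing notes. Before deposit they had split each pool into genotypes by hashtag with hashsolo, and no doublet caller was run here. Other settings, such as the counting of intronic reads, are not given in the sources used here. After cells under 500 UMIs, under 200 genes or over 20% mitochondrial UMIs were removed, 96911 of 97404 remained. Ribosomal, Gm-numbered and mitochondrial genes (9543) stayed out of the tests, as in the study's own analysis. The members and the lists were chosen with earlier results of these data known.

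UMIs were summed per library, or per library and class of cells, because cells are not replicates. The sums were fitted with edgeR 4.0.16 (R 4.3.3, limma 3.58.1; TMM, default filter on low counts, robust quasi-likelihood test, two-sided, called at an adjusted p under 0.05). Whole compartments were contrasts in 1 fit of 12 libraries. Classes used the libraries of their compartment. The script was tested on simulated counts. CPM refers to all UMIs of the library or class. A class held cells with at least 1 UMI of its gene. Shares were also thinned to 2000 UMIs a cell, over cells with at least that many. Nothing states how many mice gave a library, so p-values rest on spread between libraries and not between mice. Whole compartments shared 1 estimate of spread over the 12 libraries. Where a block was used, differences between its levels were taken out first. UMI counts printed beside a value speak to counting error only, and few libraries set the precision of the tests. Libraries of 1 pool shared a droplet run, which pairs them, and the deviations from the group means of the WT and KO library of a pool correlated across 14925 genes at 0.290 in spleen, 0.0629 in thymic γδ T cells and 0.175 in DN1-DN3 cells. Alternatives were DESeq2 1.42.0, RLE factors, no filters, a replicate block, other gates and leaving out each library. All 10 members and Gfi1 were named, the relatives called in thymic γδ T cells (at most 10, by adjusted p, and in addition Hdac4, Hdac5, Ptprk, Ptpru, Aff2, Sox6 and Sox13, chosen after their values were seen), and 4 of the 5 genes of most like profile. Some genes, and the class of cells and marker values that need them, are not reported here. Python 3.11.15 did the rest.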

Additional observations from a re-analysis of the deposited data

Results flagged for a closer look

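The KO difference itself differed between thymic γδ T cells and DN1-DN3 cells for 9 of the 10 genes (log2 difference in γδ T cells minus that in DN1-DN3 cells, edgeR interaction term, adjusted p 5.60e-05 to 0.0109), beside 13% of all genes tested that were lower and 8.83% that were higher. It was −5.19 for Ptprm, −2.99 for Chn2, −2.92 for Sox5, −1.68 for Hdac9, −1.56 for Gria3, −1.25 for Ift80, −1.20 for Arpp21, −1.19 for Aff3 and −0.64 for Scml4. The call of Chn2 was lost under 3 alternatives, at 0.0505 to 0.0737. Chn2 and Sox5 are the 2 of these that rose in KO DN1-DN3 cells. The genes were chosen for a low KO level in splenic γδ T cells, so this comparison is not fully independent of the choice.

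The KO difference also differed between thymic γδ T cells with a UMI of Il2rb and none of Ccr7 and those with Ccr7 and no Il2rb for 7 of the 10 genes, in a comparison added after the data had been seen (edgeR, adjusted p 7.99e-10 to 0.0323), beside 15.8% of all genes tested that were lower and 13.1% that were higher. It was −3.47 for Sox5, −2.72 for Ift80, −2.61 for Arpp21, −2.48 for Hdac9, −2.43 for Aff3, −2.31 for Gria3 and −1.13 for Scml4. Neither class need hold the same mixture of cells in both genotypes. The call of Aff3 was lost under 3 alternatives, at 0.0889 to 0.0985.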

How the results depend on the processing

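Of 907 values of single genes under an alternative, 818 counted as the same, 47 were no longer called and 18 became called. In 1, a called difference reversed, Gria3 at 0.054 in thymic γδ T cells with at least 2 UMIs of Ccr7. The same meant the same side of the threshold, or for the splenic classes a move below the spread between the 2 libraries. Differences never called could change sign and still count as the same. Chn2 did so in thymic γδ T cells (−1.03 to 0.477) and Ptprm in DN1-DN3 cells (−0.52 to 0.93). The other 23, differences in thinned share between the splenic classes with no test, moved by more than the spread between the 2 libraries and kept their sign. Counts of genes called moved as follows, and the cause was not tested. Fitting only the 4 DN1-DN3 libraries called 2074 genes in place of 3422. DESeq2 called 1378 in place of 3899 between the WT thymic classes, 1479 in place of 2627 in thymic Ccr7 cells (3 of the 10 genes in place of 5), 2184 in place of 3680 for the difference between classes, and 5 of the 10 in place of 3 in Il2ra cells. With at least 2 UMIs of the gating gene, 1029 genes and 3 of the 10 were called in Ccr7 cells and 1799 genes for the difference between classes.

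Pools pair the WT and KO libraries. With the pool as a replicate block, 1991 genes in place of 1285 and 5 of the 10 in place of 3 were called in Il2ra cells, where Chn2 and Hdac9 became called. Without the block the call of Aff3 between the WT thymic classes was lost (adjusted p = 0.197). There the adjusted p of Ptprm was 0.00286 and that of Hdac9 0.0392, far above those with the block. The block changed no other call of the 10 genes.

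Leaving out 1 library at a time gave 1677 to 4759 genes and 3 to 6 of the 10 in DN1-DN3 cells, 1883 to 4045 genes for the interaction, 2583 to 2920 genes and 6 to 9 of the 10 between the WT thymic classes, 3757 to 8451 genes in Il2rb cells, 1445 to 2691 genes and 1 to 6 of the 10 in Ccr7 cells, 95 to 4018 genes and 0 to 5 of the 10 in Il2ra cells, and 2204 to 3793 genes for the difference between classes. A lone library is assumed to vary like the others.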

Other observations

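In KO spleen, cells with a UMI of Ccr7 and none of Il2rb numbered 36 and 50. Hdac9 was at 261 and 26.9 CPM in them, and the first value rests on 54 UMIs in 4 of the 36 cells.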
